A study of Bos taurus with 8 samples.

Results

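Genes for translation initiation factors (symbols beginning with EIF) and elongation factors (EEF) were examined in cattle muscle. Members were chosen by symbol alone, through the RefSeq transcript that the array design gives for each probe. Of 66 such genes in the RefSeq table, 35 had a named probe on the array, and all 35 passed the filter on dim probes, among 6693 named genes that did. The other 31, EIF4E, EIF4EBP1, EIF4G1 and EIF2AK4 among them, were not analysed here. The muscle was the semitendinosus, a hind limb muscle, of bulls aged 15 months. Hereford and Holstein-Friesian stood for well-marbled beef and Limousin for lean beef, with 4 bulls of each breed. All 12 bulls gave total RNA extracted with Trizol, and the labels name no treatment. Each of 8 arrays compared a marbled bull with a Limousin bull. On 1 slide the dye of Hereford was Cy5 and that of Limousin Cy3. On the other, Limousin had Cy5 and Holstein-Friesian Cy3. Both slides used the same 4 Limousin bulls, so the comparisons of the marbled breeds share their controls, and breed, dye and slide cannot be told apart in either.

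Initiation factors bring the small ribosomal subunit and the initiator tRNA to the start codon of an mRNA, and elongation factors then carry aminoacyl-tRNAs to the ribosome and move it along the message. Phosphorylation of the alpha subunit of EIF2 lowers initiation under stress, and phosphorylation of EEF2 by its kinase slows elongation. In skeletal muscle, whose mass depends on the balance of protein synthesis and breakdown, these steps respond to amino acids, insulin and contraction.

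Holstein-Friesian gave the dimmest readings, with a median net intensity of 30.5 to 46.5, against 97 to 139 for Hereford. Limousin gave 63 to 88 in Cy3 and 96.5 to 118 in Cy5, and 0 spots were saturated. Of 8 skeletal muscle markers, 6 were measured, and each was above background in all 16 channel readings (8 arrays with 2 channels each). Of the markers of other cells, 5 of 6 for adipocytes, 6 of 6 for fibroblasts, 2 of 5 for endothelium, 3 of 5 for macrophages, 2 of 4 for blood and 4 of 5 for lymphocytes were measured too. In such bulk samples, fewer cells of a type and less RNA per cell cannot be told apart.

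The translation factor genes were among the brighter features of the array. Of the 35, 34 were above background in all 16 readings, and EIF5A2, a paralogue of EIF5A, in 11. Their median log2 intensity of 11.72 lay at the 90.7th percentile of the 17061 probes kept, whose median was 7.86. All named genes, also read by their brightest probe, had a median of 8.686, at the 61.8th percentile. Above the median of the probes kept lay 31 of the 35 members and 4104 of the 6693 named genes. With 4 arrays per breed, the precision of the members' ratios is limited by the number of arrays. Paralogues such as EIF4A1 and EIF4A2, EEF1A1 and EEF1A2, or EIF1 and EIF1B are alike in sequence, and cross-hybridisation between them was not tested. EIF3CL is annotated as a copy of EIF3C, and its signal may include that gene.

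Ratios are log2 of breed over Limousin within an array, given as mean ± SD over 4 arrays, and a gene was called when limma's adjusted p over all 17061 probes was under 0.05. In Holstein-Friesian, the helicase genes EIF4A1 and EIF4A3 were higher than in Limousin, and EIF5 and the EIF3 subunit gene EIF3J were lower. These were 2 genes called higher and 2 called lower of 35, against 3% and 3.45% of all probes. In Hereford no member was called (0 of 35), where 7.14% of all probes were. That share rests on a spread pooled over both slides. With a spread taken from the Hereford arrays alone, 0.158% of all probes were called and again 0 of 35 members. Over both marbled breeds no member was called either (0 of 35), against 0.598% of all probes. Before adjustment, limma p was under 0.05 for 8 members in Hereford against 24.2% of all probes, for 16 in Holstein-Friesian against 23.5%, and for 10 over both breeds against 19.6%.

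The members did not move together in one direction after loess. Their median ratio was -0.04 in Hereford, with 15 above and 20 below 0, where the median of all named genes was -0.0011. In Holstein-Friesian it was 0.10, with 20 above and 15 below 0, where all named genes had -0.0018. With each array centred on its median in place of loess, the members' median in Holstein-Friesian was -0.513, with 1 called higher and 16 lower, while 39.1% of all probes were called. The size of the ratio without its sign had a median of 0.284 for members in Holstein-Friesian against 0.145 for all named genes, and of 0.161 against 0.145 in Hereford. In Holstein-Friesian, 21 of 35 members (60%) had all 4 arrays on the same side of 0, 10 of them above and 11 below, against 36.5% of all probes. In Hereford 6 of 35 (17.1%) did, against 27.7% of all probes. The members were brighter than most probes, and neither the sizes nor the shares were compared at like brightness. The median of the members also differed between arrays, from -0.206 to 0.0926 in Hereford and from -0.0505 to 0.239 in Holstein-Friesian.

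**Figure D1:**
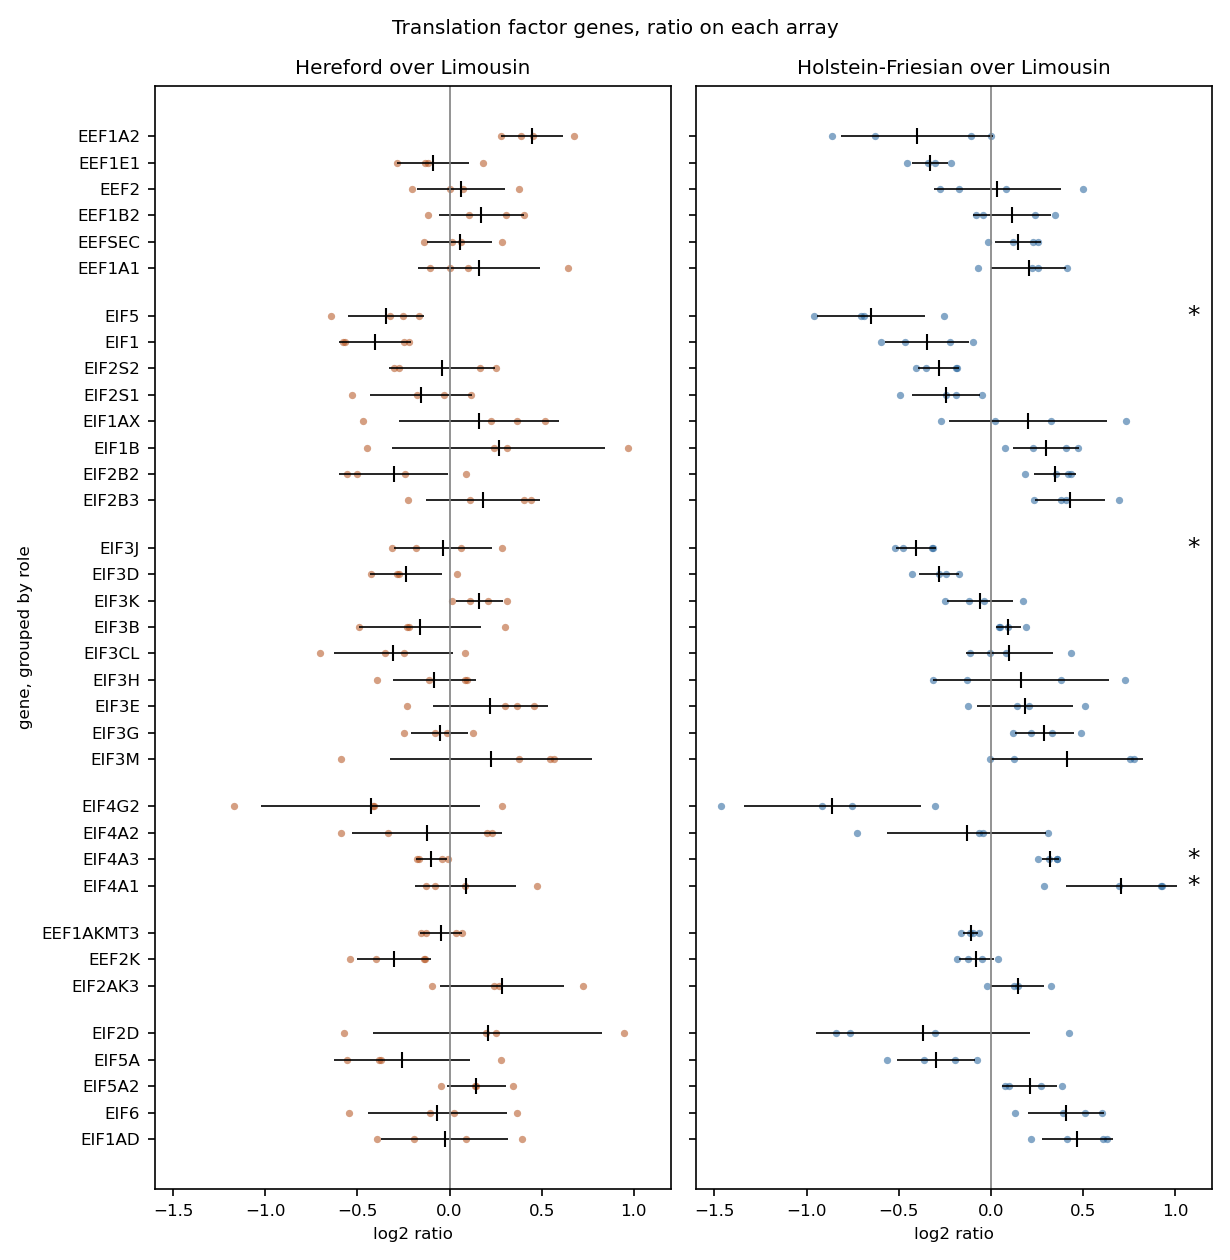
Log2 ratio of breed over Limousin for the 35 genes, 1 row per gene, grouped by role from elongation (top) to EIF5A, EIF6 and others (bottom). Points are the 4 arrays, the tick is their mean, the line is ± SD, and an asterisk marks adjusted p under 0.05; 4 genes carry it in Holstein-Friesian and 0 in Hereford.

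Among the 4 measured genes of the EIF4 group, 2 rose in Holstein-Friesian, against 3% of all probes called higher, and 2 were not called. EIF4A1 encodes the RNA helicase that unwinds the leader of mRNAs ahead of the ribosome. Its ratios in Holstein-Friesian were 0.93, 0.92, 0.29 and 0.70, a mean of 0.71 ± 0.301 (n = 4), or 1.63-fold (limma adjusted p = 0.023). All 4 arrays were above 0, and bull pair 3 was the lowest. In Hereford its ratios were -0.13, -0.08, 0.47 and 0.08, on both sides of 0, with a mean of 0.09 ± 0.273 (adjusted p = 0.762). The rise was 0.54 when both breeds were read in Cy3 on their different slides, and was not called there (limma adjusted p = 0.0734). With median centring it was 0.11 (adjusted p = 0.724).

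EIF4A3, a related helicase that is a core part of the exon junction complex deposited on spliced mRNA, had the smallest spread of these called genes. Its ratios in Holstein-Friesian were 0.32, 0.36, 0.26 and 0.36, a mean of 0.32 ± 0.0478 (n = 4) or 1.25-fold, with a limma adjusted p of 0.0162. In Hereford they were -0.01, -0.04, -0.16 and -0.18, a mean of -0.10 ± 0.0847 (adjusted p = 0.315). Every Hereford array was below 0 and every Holstein-Friesian array well above it, so the breeds did not overlap. Its normalized log2 level was 10.57, 10.60, 10.42 and 10.57 in Holstein-Friesian. The Limousin bulls ranged from 10.09 to 10.18 in Cy3 and from 10.16 to 10.25 in Cy5, and Hereford from 9.92 to 10.15. All 4 Holstein-Friesian bulls thus lay above the 12 other readings. Read in the same dye, the Holstein-Friesian ratio was 0.39 (limma adjusted p = 0.00204). From the scanner's processed signals it was 0.34 and not called (limma adjusted p = 0.102). With median centring, both the ratio, at -0.26 (adjusted p = 0.176), and its difference between breeds, at -0.38 (adjusted p = 0.167), turned sign, while the median of all probes moved to -0.199 and -0.358.

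EIF4A2, a close paralogue of EIF4A1, showed no such pattern. Its ratios were -0.59, -0.33, 0.23 and 0.20 in Hereford and -0.73, -0.04, 0.31 and -0.06 in Holstein-Friesian. Both breeds spanned 0, with means of -0.12 ± 0.406 and -0.13 ± 0.432 (limma adjusted p = 0.764 and 0.731). EIF4G2 encodes a relative of the scaffold protein EIF4G1 that lacks its site for the cap-binding protein and serves cap-independent initiation. Its ratios were -1.17, -0.42, -0.41 and 0.28 in Hereford and -1.47, -0.75, -0.31 and -0.91 in Holstein-Friesian. The Holstein-Friesian mean of -0.86 ± 0.48 was the lowest of the 35, with all 4 arrays below 0, but the arrays differed widely and it was not called (adjusted p = 0.0711). Read in the same dye it was -0.86 and called (limma adjusted p = 0.0308), as it was from the processed signals, at -0.87 (0.0402).

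**Figure D2:**
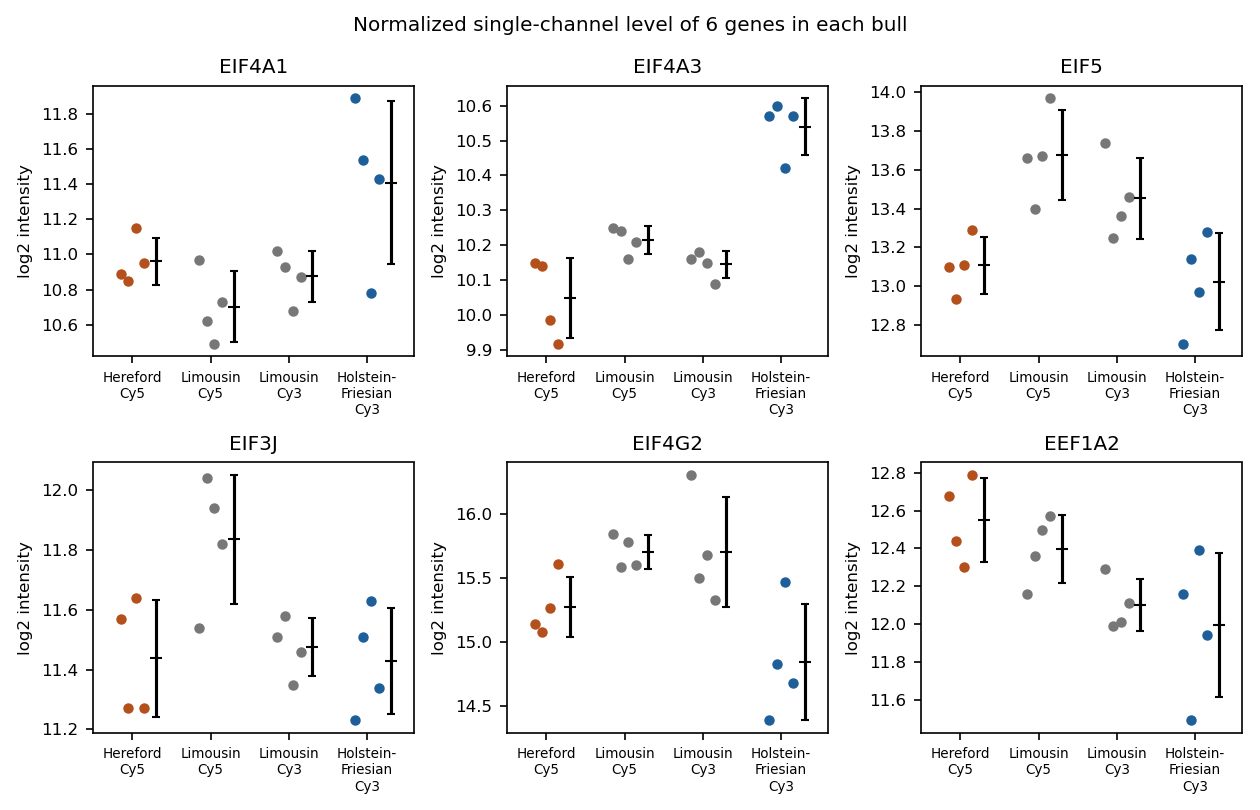
Normalized log2 intensity of 6 genes in each bull, by breed and dye; points are bulls, and the bar beside them is mean ± SD over 4 bulls. EIF4A3 was at 10.42 to 10.60 in Holstein-Friesian and at most 10.25 in every other reading, and EIF3J in Limousin was at 11.35 to 11.58 in Cy3 and 11.54 to 12.04 in Cy5.

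Of 8 genes measured for start codon selection, 1 was called, EIF5, lower in Holstein-Friesian, where 3.45% of all probes were called lower. EIF5 encodes the protein that makes EIF2 hydrolyse its GTP at the start codon. Its ratios were -0.96, -0.25, -0.70 and -0.69 in Holstein-Friesian, a mean of -0.65 ± 0.293 (n = 4) or 1.57-fold lower (limma adjusted p = 0.021). In Hereford they were -0.64, -0.32, -0.25 and -0.17, a mean of -0.34 ± 0.207 (adjusted p = 0.122). All 8 arrays were below 0, and the breeds' ranges overlapped. EIF5 had a second, dimmer probe, whose ratio was called in both breeds, at -0.37 in Hereford (adjusted p = 0.0289) and -0.38 in Holstein-Friesian (adjusted p = 0.0288). Read in the same dye, the brighter probe was at -0.57 in Hereford (limma adjusted p = 0.0296) and at -0.43 in Holstein-Friesian (0.0738). With a spread taken from the Holstein-Friesian arrays alone, the adjusted p there was 0.0548.

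EIF1, a scanning factor that guards the choice of start codon, was the only other member below 0 on all 8 arrays. Its ratios were -0.22, -0.57, -0.58 and -0.25 in Hereford and -0.60, -0.47, -0.22 and -0.10 in Holstein-Friesian. The means, -0.40 ± 0.197 and -0.35 ± 0.228, overlapped and were not called in these fits (limma adjusted p = 0.0531 and 0.0876). With median centring the Hereford mean turned to 0.11. Its paralogue EIF1B had means of 0.27 ± 0.579 and 0.30 ± 0.179, with adjusted p of 0.455 and 0.397.

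The measured subunits of EIF2, which carries the initiator tRNA, and of EIF2B, which recharges it with GTP, were not called. EIF2S1, the alpha subunit that stress kinases phosphorylate, had ratios of -0.53, -0.03, -0.18 and 0.12 in Hereford and -0.49, -0.05, -0.19 and -0.24 in Holstein-Friesian. The first pair was lowest in both breeds, and the means were -0.15 ± 0.276 and -0.24 ± 0.184. EIF2B2, the beta subunit of EIF2B, had ratios of -0.24, -0.56, 0.09 and -0.50 in Hereford and 0.18, 0.43, 0.42 and 0.35 in Holstein-Friesian. The breeds did not overlap. The difference of 0.65 had a limma adjusted p of 0.0638, and of 0.0243 with the Limousin bull as a replicate block, where 10% of all probes were called. In the same dye the difference was 0.26 (adjusted p = 0.368). The Holstein-Friesian ratio turned, under median centring, to -0.24 and the difference to -0.15. The other members, EIF1AX, EIF2B3 and EIF2S2, had means of -0.04 to 0.18 in Hereford and -0.28 to 0.43 in Holstein-Friesian.

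EIF3 is the scaffold that holds the small ribosomal subunit during initiation. Of its subunits, 9 were measured here. Only EIF3J was called within the array, lower in Holstein-Friesian, where 3.45% of all probes were called lower. EIF3J encodes a loosely bound subunit near the decoding site. Its ratios were -0.32, -0.52, -0.31 and -0.48 in Holstein-Friesian, a mean of -0.41 ± 0.109 (n = 4) or 1.33-fold lower (limma adjusted p = 0.0492), and 0.06, -0.31, 0.28 and -0.18 in Hereford. All Holstein-Friesian arrays were below 0, whereas Hereford lay on both sides. Its normalized log2 level was 11.23 to 11.63 in Holstein-Friesian. In the Limousin bulls it was 11.35 to 11.58 in Cy3, the dye of Holstein-Friesian, and 11.54 to 12.04 in Cy5. Within Limousin, Cy5 exceeded Cy3 by 0.36 (limma adjusted p = 0.0843), and the same-dye ratio was -0.05 (adjusted p = 0.847). Hereford was at -0.40 in the same dye (limma adjusted p = 0.0578), so that the difference between the breeds turned from -0.37 to 0.35, neither called (0.183 and 0.281). The call also ended with the processed signals (limma adjusted p = 0.0858), with no background correction (0.0516) and with other filters on dim probes (0.0508 and 0.0542). The other 8 subunits ranged from -0.30 (EIF3CL) to 0.22 (EIF3M) in Hereford and from -0.28 (EIF3D) to 0.41 (EIF3M) in Holstein-Friesian. EIF3D, which can itself bind the mRNA cap, was at -0.28 there and not called, and was called lower in the same-dye reading, at -0.37 (limma adjusted p = 0.0222).

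None of the 6 elongation genes was called by limma in the 4 comparisons of ratios within the array. Before adjustment 1 was under 0.05 in Hereford and 2 in Holstein-Friesian, against 24.2% and 23.5% of all probes. EEF1A1 and EEF1A2 encode the protein that delivers aminoacyl-tRNA, and EEF1A2 is the form characteristic of adult muscle and neurons. EEF1A1 had ratios of 0.00, 0.10, -0.10 and 0.64 in Hereford and -0.07, 0.25, 0.42 and 0.22 in Holstein-Friesian. Its means of 0.16 ± 0.331 and 0.20 ± 0.203 had adjusted p of 0.505 and 0.381 (limma). EEF1A2 had ratios of 0.39, 0.45, 0.28 and 0.68 in Hereford and -0.00024, -0.86, -0.11 and -0.63 in Holstein-Friesian. Every Hereford bull was above its Limousin partner and 2 Holstein-Friesian bulls were well below, with bulls 1 and 3 nearer to 0. The difference of Holstein-Friesian minus Hereford, -0.85, had a limma adjusted p of 0.0674, and 0.0306 with the replicate block, where 10% of all probes were called. It was -0.26 (adjusted p = 0.588) in the same dye, and Limousin itself was 0.30 higher in Cy5 than in Cy3 (adjusted p = 0.173).

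EEF2, which moves the ribosome along by a codon, had ratios of -0.21, 0.00, 0.07 and 0.37 in Hereford and -0.27, 0.08, 0.50 and -0.17 in Holstein-Friesian. Its means, 0.06 ± 0.24 and 0.03 ± 0.345, were near 0 within their spread; with median centring the Holstein-Friesian value was -0.68 (limma adjusted p = 0.0158). EEF1B2, the exchange factor that reloads EEF1A with GTP, had ratios of 0.40, -0.12, 0.30 and 0.10 in Hereford and 0.35, -0.08, 0.24 and -0.04 in Holstein-Friesian. Bull pairs 1 and 3 were the higher in both breeds. EEFSEC, the selenocysteine factor, and EEF1E1, a partner of the tRNA synthetase complex, had means of 0.05 and -0.09 in Hereford and of 0.15 and -0.33 in Holstein-Friesian. EEF1E1 had a limma adjusted p of 0.0514 there, and of 0.00526 in the same dye at -0.43.

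The regulators and the remaining factors held no gene called by limma within the array in Hereford, in Holstein-Friesian or over both. Before adjustment, 2 of the 3 regulators in Hereford and 3 of the 5 remaining factors in Holstein-Friesian were under 0.05, against 24.2% and 23.5% of all probes. EEF2K, the kinase that inactivates EEF2, had ratios of -0.13, -0.40, -0.14 and -0.54 in Hereford and 0.04, -0.18, -0.12 and -0.05 in Holstein-Friesian. All Hereford arrays were below 0, at -0.30 ± 0.201 (limma adjusted p = 0.0639). In the same dye Hereford was at -0.11 (adjusted p = 0.485) and Holstein-Friesian at -0.27 (0.0652), the reverse of their order within the array. In the Limousin bulls, Cy5 minus Cy3 was -0.19 (limma adjusted p = 0.0745). EIF2AK3, the endoplasmic reticulum stress kinase of EIF2, had ratios of 0.24, -0.10, 0.72 and 0.27 in Hereford and 0.15, -0.02, 0.33 and 0.13 in Holstein-Friesian. Its means of 0.28 ± 0.337 and 0.14 ± 0.144 were not called, and a second probe read -0.03 in Holstein-Friesian. EEF1AKMT3, a lysine methyltransferase, was at -0.05 and -0.11.

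EIF5A, the hypusine-bearing factor that relieves stalled ribosomes, had ratios of -0.39, -0.56, 0.28 and -0.37 in Hereford and -0.56, -0.37, -0.08 and -0.19 in Holstein-Friesian. EIF6, which keeps the large ribosomal subunit from joining early, had ratios of 0.36, -0.11, 0.02 and -0.55 in Hereford and 0.61, 0.39, 0.51 and 0.13 in Holstein-Friesian. EIF5A was below 0 and EIF6 above 0 on all 4 Holstein-Friesian arrays, with means of -0.30 ± 0.212 and 0.41 ± 0.207, neither called (limma adjusted p = 0.237 and 0.122). EIF6 turned to -0.23 there with median centring. EIF1AD, EIF2D and EIF5A2 ranged from -0.03 to 0.21 in Hereford and from -0.37 (EIF2D) to 0.47 (EIF1AD) in Holstein-Friesian.

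Taken over both marbled breeds, each Limousin bull gave 1 value per gene, the mean of its ratios on both slides, in which a dye effect common to the slides cancels. EIF4A1 had bull values of 0.40, 0.42, 0.38 and 0.39, a mean of 0.40 ± 0.0184 (n = 4), and limma's adjusted p of 0.0505 lay just above the threshold. That close agreement came from unlike parts, since bull pair 3 was lowest in Holstein-Friesian and highest in Hereford. EIF5, at -0.80, -0.29, -0.48 and -0.43, and EIF1, at -0.41, -0.52, -0.40 and -0.17, were below 0 for all 4 bulls. Their means were -0.50 and -0.37, with limma adjusted p of 0.0834 and 0.0837. With the Limousin bull as a replicate block both were called by limma, EIF5 with an adjusted p of 0.026 and EIF1 with 0.0472. That fit called 5.33% of all probes over both breeds, against 0.598% in the main fit.

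The difference between the breeds was called for 1 member of 35, against 2.71% of all probes. EIF4A3 was 0.42 higher in its ratio in Holstein-Friesian than in Hereford (limma adjusted p = 0.0357), and 0.56 higher in the same dye (adjusted p = 0.0087). Before adjustment, 8 members were under 0.05 against 21.1% of all probes. The ratios of the breeds did not overlap in 3 members, EEF1A2, EIF2B2 and EIF4A3, or 8.57%, where 14% of all probes did not. Leaving out any 1 of the 4 Limousin bulls, with its arrays on both slides, ended the call of EIF4A3, at 0.38 to 0.45 with limma adjusted p of 0.0618 to 0.237. Few probes of any kind were called in most of these fits. The share of all probes was 2.68% without bull 1, 0.141% without bull 3 and 0 without bull 2 or bull 4.

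Dye was examined through the Limousin bulls, each read in Cy3 on 1 slide and in Cy5 on the other. No member was called between its Cy5 and Cy3 readings (0 of 35 by limma), against 4.71% of all probes. Before adjustment 11 were under 0.05, against 24.2% of all probes. A difference over 0.2 in size was seen in 7 of 35, a count not made over all probes. When each breed was set against Limousin in the same dye on the other slide, 1 member was called in Hereford, against 7.46% of all probes, and 8 in Holstein-Friesian, or 22.9%, against 9.34%. EIF5 was the member called lower in Hereford. In Holstein-Friesian EIF4A3 was higher, and EEF1AKMT3, EEF1E1, EIF1, EIF2S1, EIF3D, EIF4G2 and EIF5A were lower. Of the 4 members called within the array, only EIF4A3 was called in both readings.

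**Figure D3:**
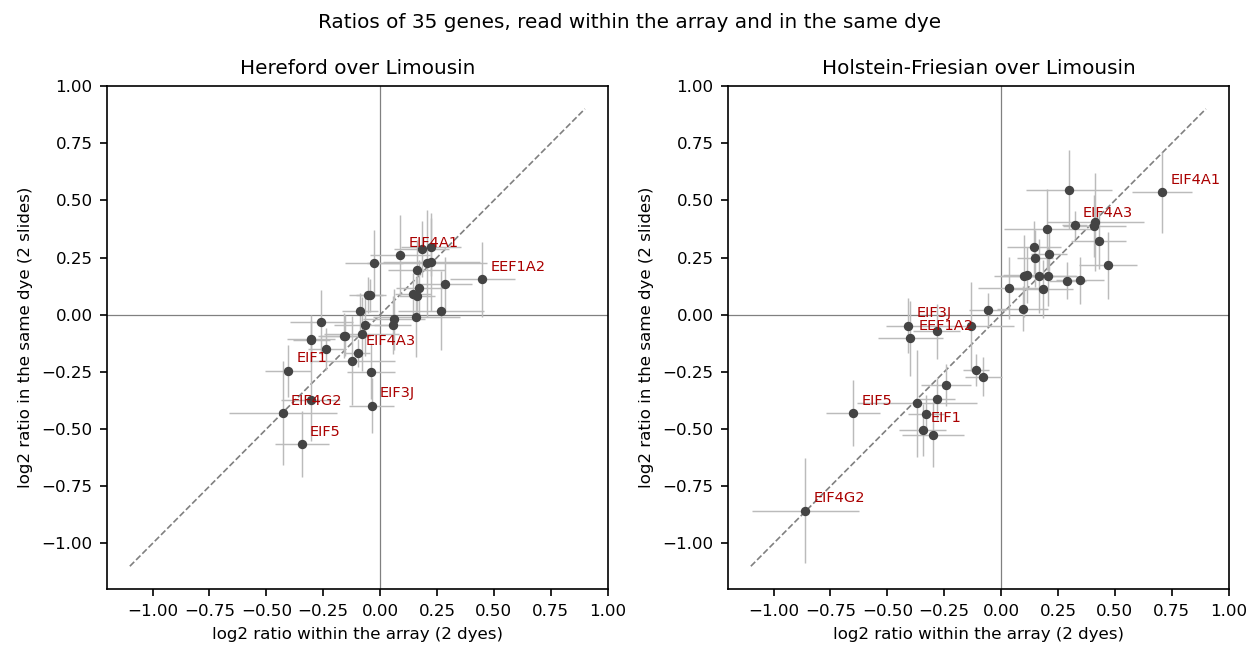
Log2 ratio of breed over Limousin for 35 genes read within the array in 2 dyes (horizontal) and in the same dye across slides (vertical); bars are standard errors and the dashed line marks equal values. In Holstein-Friesian, EIF3J moved from -0.41 to -0.05 and EIF4A3 stayed at 0.32 and 0.39.

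The calls in Holstein-Friesian changed when the arrays of 1 Limousin bull were left out. Without bull 1, EIF4A3 and EIF5 were called, without bull 3 only EIF4A1, and without bull 2 or bull 4 no member was (0 of 35), as the share of all probes called fell to 0.457% and 0.744%. The ratios of all 4 genes kept their sign in these fits, EIF4A1 from 0.64 to 0.85, EIF4A3 from 0.31 to 0.34, EIF5 from -0.78 to -0.55 and EIF3J from -0.44 to -0.37. Markers of other cells moved in the same comparison. Of 6 fibroblast markers, 4 were below 0 and 2 above in Holstein-Friesian (median -0.897), and 1 was called, the collagen COL3A1, which fell by 2.53 on the log2 scale (limma adjusted p = 0.0125). Their summed intensity was 13600 to 29300, against 32600 to 53300 for Limousin in Cy3 and 27200 to 51400 in Cy5. Of 6 muscle markers, 4 were below 0 and 2 above (median -0.143). MB fell by 1.02 (adjusted p = 0.0167), while MYH7 was at 1.06 (0.0681). The sum of the 6 was 691000 to 899000, against 644000 to 791000 for Limousin in Cy3 and 827000 to 906000 in Cy5. Of 5 adipocyte markers, 4 were below 0 (median -0.259) and none of those was called, whereas CFD rose by 1.17 (adjusted p = 0.0166). Their sum was 2830 to 4570, against 1670 to 3210 for Limousin in Cy3 and 1520 to 3050 in Cy5. All 3 macrophage markers were above 0 and none was called, CD14 at 0.49 being the nearest (limma adjusted p = 0.0514), with sums of 452 to 973 against 418 to 657 in Cy3 and 357 to 539 in Cy5. Of 4 lymphocyte markers, 2 were above 0 and 2 below, and CD3E rose by 0.52 (adjusted p = 0.0448), with sums of 1400 to 1740 against 1230 to 1590 and 1320 to 1530. The 2 endothelial and 2 blood markers were not called. Of all these markers, 1 adipocyte marker was not above background in any Holstein-Friesian reading, and the part of these shifts in the results was not tested.

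The Limousin bulls also differed among themselves. Averaged over both dyes, EIF2D, a factor for non-canonical initiation and recycling, had the widest range, from 9.13 in bull 1 to 9.97 in bull 2, or 1.79-fold. EIF3M followed with 1.68-fold, from 11.12 in bull 2 to 11.86 in bull 1, and EIF4G2 with 1.54-fold, from 15.46 in bull 4 to 16.08 in bull 1. Bull 1 was highest for EIF4G2 in both dyes, and the pair of arrays that holds this bull gave the lowest EIF4G2 ratios in both breeds, -1.17 and -1.47. Limousin bull 1 read 16.31 in Cy3, against 15.33 to 15.68 in the other bulls, and 15.85 in Cy5, against 15.59 to 15.78. The Holstein-Friesian bull set against it was also the lowest of its breed, at 14.39 against 14.68 to 15.47. Bull 1 was the highest for 12 of the 35 members by the mean of both dyes. Whichever bull was highest, it was the same in Cy3 and Cy5 for 16 of the 35. EIF4A3 varied least, by 1.04-fold.

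**Figure D4:**
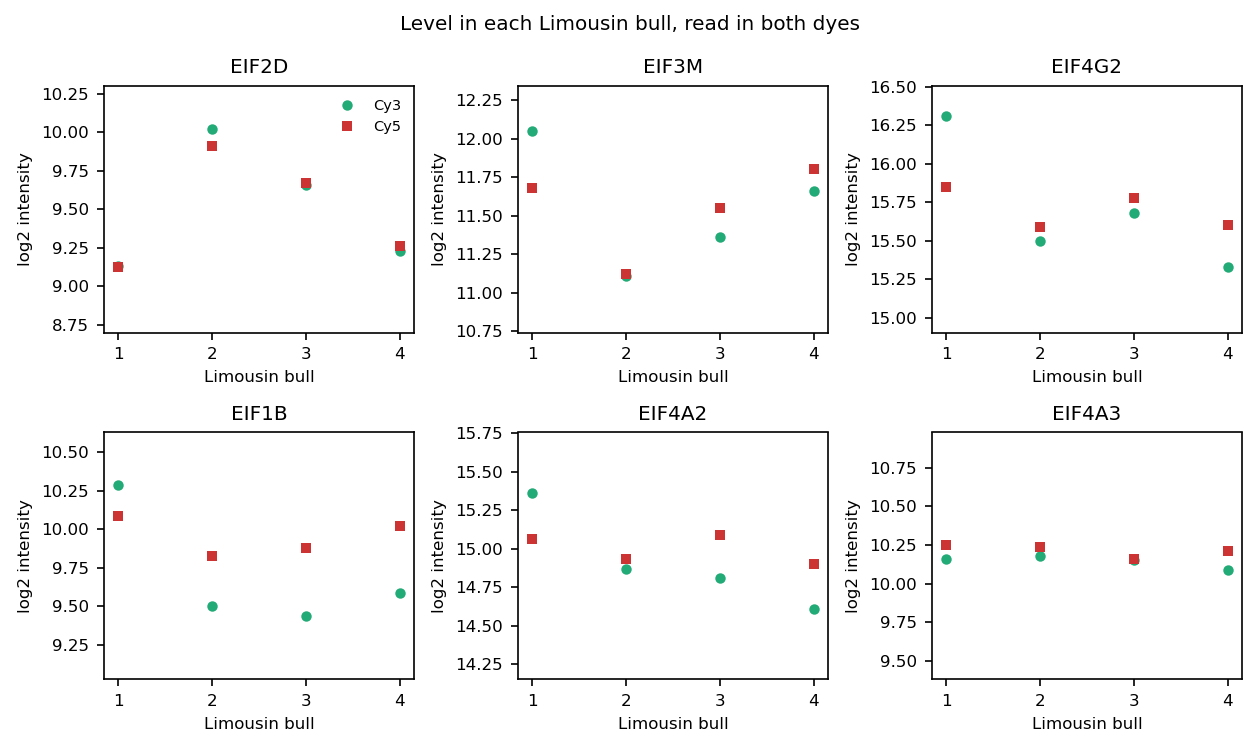
Normalized log2 intensity in each of the 4 Limousin bulls in Cy3 (circles) and Cy5 (squares), for the 5 genes with the widest range over bulls and for EIF4A3; every panel spans the same range of log2 units. EIF4A3 varied by 1.04-fold over bulls and EIF2D by 1.79-fold.

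The wider pathway was counted from 3 lists. Their genes were read in the main fit only, and not in the same dye or under the other settings. Of 32 genes of the EIF2 stress response and mTOR signalling, 17 were measured. In Holstein-Friesian 3 of the 17 rose, against 3% of all probes, the stress transcription factors ATF3 (4.26) and DDIT3 (0.68) and the mTOR inhibitor DDIT4 (1.88), and 0 fell, against 3.45%. In Hereford ATF3 rose by 2.77 and DDIT4L fell by 1.38, against 7.14% of all probes called. Over both breeds ATF3 alone was called, at 3.52, against 0.598%. The median over the 17 was -0.0849 in Hereford and -0.0616 in Holstein-Friesian, against -0.0011 and -0.0018 for all named genes.

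Of 19 genes for termination, poly(A) binding and recycling, 10 were measured, and 3 fell in Holstein-Friesian, against 3.45% of all probes. They were the recycling ATPase ABCE1 (-0.62), the release factor GSPT1 (-0.55) and the ribosome rescue factor HBS1L (-0.49), with limma adjusted p of 0.0453, 0.0452 and 0.0359. In Hereford MCTS1, a partner in reinitiation, rose by 0.79 (adjusted p = 0.00731), and it and HBS1L were lower in Holstein-Friesian than in Hereford, by differences of -0.86 and -0.76. The shares of all probes called were 7.14% in Hereford and 2.71% for the difference. The median over the 10 was -0.0909 in Hereford and -0.133 in Holstein-Friesian. Of 22 aminoacyl-tRNA synthetase genes and partners, 16 were measured. AIMP2 (-0.77) and HARS1 (-0.39) fell in Hereford and RARS1 (0.54) rose in Holstein-Friesian, or 2 and 1 of 16, against 7.14% of all probes in Hereford and 3% called higher in Holstein-Friesian, while the medians were -0.0464 and -0.0725.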

How the data were processed

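Total RNA of 12 bulls was read on 8 Agilent 2-colour arrays, and per the submitters' processing notes the spots were quantified in Agilent Feature Extraction 10.7.3.1. Spot and background signals were intensity values per the file headers. The table deposited by the authors is on a log10 scale, Cy5 relative to Cy3, and matched the scanner's own ratio at 44407 of 44407 spots per array. The Holstein-Friesian arrays stood there as Limousin over Holstein-Friesian and were turned here. The flags for spots above background, saturated or outlying were used as deposited.

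Median signals were corrected with normexp (offset 50) and normalized with loess (span 0.3) in limma 3.58.1 under R 4.3.3, with statmod 1.5.0. Control and outlier spots were left out. A probe was kept when above background in at least 4 of 16 channel readings, a reading counting when at least a share of 0.5 of its spots was, which left 17061 of 21475 probes. Probes were named through a RefSeq table of another assembly, used for names only, which gave 8297 probes a symbol. A gene was read by its brightest kept probe.

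Breed means over 8 arrays, their difference and the 4 bull means were tested with lmFit and eBayes, two-sided, with Benjamini-Hochberg adjustment over all kept probes. Same-dye ratios came from single channels (lmscFit after Aquantile). On simulated data, shifts of 0.5, 1 and 2 (log2) in Holstein-Friesian were called for 43.3%, 73.1% and 98.5% of the 67, 67 and 66 probes shifted among 17061, with 11 false calls. The simulated noise was normal and independent between arrays and probes. It held no shared Limousin bulls and no dye effect, so these rates need not hold for the real arrays.

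Replicate numbers mark the Limousin bull per the labels, so they pair the arrays; deviations of same-numbered arrays correlated at 0.415, 0.273, 0.5004 and 0.0987. Values per array are given for members called, the 3 of smallest p in each comparison and members set by role; other members named stand out by their range and were chosen after their values were seen. The members and the lists were chosen with earlier results of these data known. Alternatives were median centring, no background correction, the scanner's processed signals, the deposited ratios, other filters on dim probes, a replicate block, each slide alone, the same dye, the mean over a gene's probes, and leaving out each bull.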

Additional observations from a re-analysis of the deposited data

Results flagged for a closer look

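EIF4A3 differed between the breeds in its ratio to Limousin, by 0.42 on the log2 scale (limma adjusted p = 0.0357), with all 4 Holstein-Friesian arrays above 0 and all 4 Hereford arrays below. Leaving out any Limousin bull ended that call, and median centring turned the sign of the difference. EEF1A2 had all 4 Hereford arrays above 0 and all 4 Holstein-Friesian arrays below, 1 of them at -0.00024. The difference of -0.85 was not called (limma adjusted p = 0.0674), and in the same dye it was -0.26 (adjusted p = 0.588). The ratios of the breeds did not overlap in 8.57% of members, against 14% of all probes. In 34 groups of 4 arrays, the ratios of 17 members in both breeds, no array stood apart from the others by Dixon's test, which flags about 1 group in 20 by chance.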

How the results depend on the processing

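Median centring in place of loess changed most. It put the members' median at 0.27 in Hereford, -0.513 in Holstein-Friesian, -0.0849 over both breeds and -0.86 for the difference, where the median of all probes moved to 0.0991, -0.199, 0.0013 and -0.358. It called 17 members in Holstein-Friesian (1 higher and 16 lower, against 2 and 2, with 39.1% of all probes called), 2 over both breeds (5.57%) and 22 for the difference (36.5%). It turned 27 signs of single members, 5 of them with a call before or after. In Hereford these were EIF1 (0.11), EIF2S1 (0.061), EIF3J (0.20), EIF4A2 (0.32), EIF4A3 (0.12), EIF4G2 (0.060), EIF5A (0.21) and EIF6 (0.18). In Holstein-Friesian they were EEF1A1 (-0.44), EEF1B2 (-0.56), EEF2 (-0.68), EIF2AK3 (-0.074), EIF2B2 (-0.24), EIF4A3 (-0.26) and EIF6 (-0.23). Over both breeds they were EEF1A2 (-0.16), EEF2 (-0.059), EIF2B2 (-0.16), EIF4A3 (-0.070) and EIF6 (-0.022). In the difference they were EEF1A1 (-0.89), EEF2K (-0.62), EIF1 (-1.17), EIF2B2 (-0.15), EIF4A1 (-0.20), EIF4A3 (-0.38) and EIF6 (-0.41). The cause was not tested. The same dye called 1 member in Hereford (7.46% of all probes), 8 in Holstein-Friesian (9.34%) and 9 over both breeds (13.9%). Over both breeds its ratios equalled those within the array, EIF4A1 being at 0.3977 in each, so only the fit differed there. That fit took the channel readings as separate values, where the main fit took 1 mean per Limousin bull. The same dye turned 10 signs, none with a call, in Hereford EEF2 (-0.021) and in the difference EEF1A1 (-0.028), EEF1B2 (0.057), EEF2 (0.14), EEF2K (-0.16), EIF1 (-0.26), EIF2AK3 (0.16), EIF3J (0.35), EIF4A2 (0.15) and EIF5 (0.14). The processed signals and the deposited ratios each turned 4 signs with no call, in Hereford EEF2 (-0.036) and in the difference EEF2 (0.074), EIF4A2 (0.045) and EIF5A (0.068). They and a filter on all 16 readings called 0 for the difference, against 5.71%, 5.74% and 3.55% of all probes. The replicate block (paired arrays) called 2 members over both breeds (5.33% of all probes) and 3 for the difference (10%). It kept the counts of 0 in Hereford (6.98%) and 4 in Holstein-Friesian (6.33%). No filter on dim probes called 1 member over both breeds (0.196%). Leaving out a bull gave 0 to 2 members in Holstein-Friesian (0.457% to 4.75% of all probes) and 0 to 0 for the difference (0 to 2.68%), with fewer samples. It turned 20 signs, none with a call, of members that then ranged as follows: in Hereford EEF2 (-0.044 to 0.15), EIF3J (-0.14 to 0.055), EIF4A1 (-0.041 to 0.16), EIF4A2 (-0.24 to 0.034) and EIF6 (-0.21 to 0.093), in Holstein-Friesian EEF2 (-0.12 to 0.14) and EIF4A2 (-0.28 to 0.068), over both breeds EEF1A2 (-0.031 to 0.10), EEF2 (-0.032 to 0.14), EIF2B2 (-0.055 to 0.055) and EIF4A2 (-0.26 to 0.051) and in the difference EEF1A1 (-0.11 to 0.20), EEF2 (-0.18 to 0.15), EIF1 (-0.041 to 0.20), EIF2S1 (-0.13 to 0.0020), EIF4A2 (-0.11 to 0.078) and EIF5A (-0.12 to 0.064). Over all settings, 717 values of single members kept direction and side of the threshold, 36 gained a call, 32 lost one and 65 turned. These counts do not measure robustness. The other filters on dim probes, the replicate block and each slide alone used the main ratios, so no sign could turn there. The processed signals and the deposited ratios hold the same scanner ratio, which was thus counted under both. The 4 bulls per breed limit all values. Holstein-Friesian was read in the dimmest channel, and the part of this in the values of that breed was not tested.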
